A study of Homo sapiens with 55 samples.

Results

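The splicing of 6 genes was followed across 44 RNA-seq libraries: H2AFY, BCOR, IRAK4, STRAP, PICALM and CTNNB1. They were picked as genes whose splicing may differ between cells with the U2AF1 S34F mutation and cells with wild-type (WT) U2AF1. In the main test for S34F, 1 event of CTNNB1 passed and none in the other genes. They were chosen by the difference in isoform shares between S34F and WT libraries of these data, beside the literature on S34F, so that difference is described here and supports nothing. Their members are 54 splicing events of 110816 with coordinates, taken by position within the 6 genes in build hg19, on the gene's strand. PICALM had 12 events, H2AFY 13, STRAP 10, IRAK4 9, CTNNB1 7 and BCOR 3. By type, 25 were skipped exons, 20 alternative 3′ splice sites, 8 alternative 5′ splice sites and 1 a pair of mutually exclusive exons.

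The cells were K562, an established human leukemia line, and 293T, a line from human embryonic kidney. They carried a guide against GPATCH8 (sgGPATCH8), against SUGP1 (sgSUGP1) or, as control, against a luciferase of the sea pansy Renilla, which has no target in human cells (sgRenilla). In the U2AF1 panel K562 cells overexpressed U2AF1 S34F or U2AF1 WT, each with sgGPATCH8 or sgRenilla, with 3 libraries in each of the 4 groups. In the SRSF2 panel they overexpressed SRSF2 P95H or SRSF2 WT, again with sgGPATCH8 or sgRenilla and 3 libraries a group. The SF3B1 panel held K562 cells with a knocked-in SF3B1 K700E mutation and WT cells, each with 2 sgGPATCH8, 2 sgSUGP1 and 1 sgRenilla library. The 2 libraries against a gene there carried different guides, 1 library per guide, and were fitted as replicates, so p-values of that panel measure the spread between guides and libraries together. The 293T panel held 4 sgGPATCH8, 4 sgSUGP1 and 2 sgRenilla libraries. There were 2 guides against each gene with 2 libraries per guide, and each guide was fitted as its own group. Its labels split the sgGPATCH8 and sgSUGP1 libraries evenly between WT-1 and WT-2, without saying what these are, and put both sgRenilla libraries in WT-1, so WT-2 has no control of its own. Overexpression adds to the U2AF1 or SRSF2 that K562 cells make themselves. The promoter of the transgenes, and whether cells were pools or clones, are not given in the sources used, nor is whether libraries of a group came from separate cultures, so p-values measure only the spread between these libraries.

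U2AF1 is the small subunit of U2AF, the factor that binds the AG at the end of an intron and so marks the 3′ splice site (the acceptor) for the U2 snRNP. S34F changes a zinc finger of U2AF1 in myelodysplastic syndromes and leukemias. It is known to shift usage between acceptors according to the base just before the AG, at position −3, away from T and towards C or A. GPATCH8 and SUGP1 are both proteins with a G-patch, a domain known to activate DEAH-box helicases of the spliceosome.

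The measure was the share of the isoform listed first in an event, in percent. That isoform used the upstream acceptor in alternative 3′ splice sites, the downstream donor in alternative 5′ splice sites, and the exon in skipped exons. A share gives the balance of isoforms, so less of one and more of the other cannot be told apart. Where a share is given as of transcripts, it is of the isoforms of that event and not of all transcripts of the gene. The files gave no read counts or gene levels, so the depth behind each share is unknown and the level of GPATCH8 in sgGPATCH8 cells could not be checked. Columns had a value for 73% to 79.2% of all events. Groups were compared with limma over all events that had a value in every library of a panel and were not near 0% or 100% in all groups. A call needed group means at least 5 percentage points apart and a p under 0.05 after Benjamini-Hochberg adjustment over all tested events. Of the 54 events, 26 passed this filter in the U2AF1 panel, 25 in the SRSF2 panel, 28 in the SF3B1 panel and 27 in the 293T panel. In the U2AF1 panel the replicate 1 libraries of all 4 groups stood apart together: their deviations from the group means correlated by 0.23 to 0.39 across events, against −0.24 to −0.12 with those of replicates 2 and 3. The main differences of that panel are therefore also given without them. That fit called 0 of 44733 tested events in each comparison, so a call lost in it is not particular to an event. The 4 panels were deposited as separate tables, so levels are set side by side across panels but tested only within one.

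Some acceptors of the named events are shown because S34F is known to shift usage by the base at −3. Whether it acts at these sites was not tested. The sites of the 24-nt exon and the 21-nt pair of PICALM belong to events named for differences with sgGPATCH8. Each line has the last 20 bases of the intron and the first 4 of the exon, 5′ to 3′, with positions −3 to −1 in capitals, read from GENCODE 29 transcripts that run through the site (build GRCh38).
CTNNB1 upstream acceptor, chr3:41239640-41239663, plus strand: gcctttctctctttataCAGctgt
CTNNB1 downstream acceptor, chr3:41239799-41239822, plus strand: tctggtcctttttggtcGAGgagt
PICALM upstream acceptor of the 15-nt pair, chr11:85982000-85982023, minus strand: cgtctgtttgtaactttAAGgctt
PICALM downstream acceptor of the 15-nt pair, chr11:85981985-85982008, minus strand: ttaaggctttgatgaacTAGgtgg
H2AFY acceptor of the 100-nt exon, chr5:135353042-135353065, minus strand: cctcatgcttttctttgCAGctga
H2AFY acceptor of the 91-nt exon, chr5:135350910-135350933, minus strand: catttgtttacctgttaTAGttgc
BCOR downstream acceptor of the 102-nt pair, chrX:40063847-40063870, minus strand: ggtgtgcattgaattaaCAGggct
PICALM acceptor of the 24-nt exon, chr11:85978090-85978113, minus strand: gttctccctgggaaaaaCAGaatg
PICALM downstream acceptor of the 21-nt pair, chr11:85990375-85990398, minus strand: tcctttctctgctactgTAGatgc

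A complete window of this kind was found for 26 of the 52 acceptors that the member events use. It had C at −3 in 12, T in 8, A in 3 and G in 3. Over 50294 annotated acceptors the shares were 67.7% C, 21.2% T, 8.40% A and 2.73% G. These are only the acceptors with an AG that a transcript of the same gene runs through, a part of all annotated acceptors. The CTNNB1 pair sets CAG against GAG, the PICALM pair 15 nt apart sets AAG against TAG, and the H2AFY exons set CAG against TAG.

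CTNNB1 encodes beta-catenin, which joins cadherins to the cytoskeleton and carries Wnt signals into the nucleus. Its event lies in the 3′ UTR: the same donor is joined to acceptors 159 nt apart, with first exon bases at 41281151 and 41281310 on chromosome 3 (hg19). In the sgGPATCH8 libraries the upstream acceptor was used in 88%, 86% and 86% of transcripts with S34F, against 50%, 52% and 53% with WT. In the sgRenilla libraries it was used in 85%, 81% and 84% with S34F, against 49%, 50% and 49% with WT. The 6 S34F libraries thus lay between 81% and 88%, and the other 38 libraries of the 4 panels between 39% and 67%, with no overlap. In the sgGPATCH8 libraries the difference was 35 points (log2 ratio of used over not used 2.52 ± 0.22 SE, limma adjusted p 0.00924), the only call among 26 tested member events in a comparison that called 0.023% of all 43468 tested events. In the sgRenilla libraries the difference was 34 points, and 0.0023% of all events (1 event, this one) were called. That call was lost when any 1 of the 12 libraries other than the S34F sgGPATCH8 replicate 3 was left out, and without the replicate 1 libraries (33 points, limma adjusted p 0.245). In those fits the comparison called 0 or 1 of all tested events. It is not recorded which libraries entered the choice of the genes, so the test in the sgGPATCH8 libraries gives no independent support. Without the replicate 1 libraries the difference there was 33.5 points and its adjusted p 0.139. The call was also lost without replicate 2 or replicate 3 of either sgGPATCH8 group (limma adjusted p 0.0537 to 0.0995), with differences of 35.2 to 35.7 points. Each of these fits called 0 of all tested events in that comparison.

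PICALM encodes a clathrin assembly protein of endocytosis. Its pair of acceptors 15 nt apart, at 85693046 and 85693031 on chromosome 11, gives an exon of 132 nt from the upstream site. The upstream AAG site was used in 82%, 80% and 79% of transcripts in S34F sgGPATCH8 cells, against 64%, 58% and 59% in WT sgGPATCH8 cells. With sgRenilla the shares were 81%, 77% and 78% in S34F cells, against 64%, 57% and 56% in WT cells. All 6 S34F libraries lay above all 6 WT libraries, and the sgGPATCH8 and sgRenilla values lay close together. The difference of 20 points in the sgGPATCH8 libraries did not pass the test (log2 ratio 1.38 ± 0.24 SE, limma adjusted p 0.0841).

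BCOR encodes a corepressor that works with BCL6 and within a Polycomb complex. Its acceptors 102 nt apart, at 39923205 and 39923103 on chromosome X, begin exon 8, which is 345 nt long from the upstream site. The upstream site was used in 23%, 15% and 19% of transcripts in S34F sgGPATCH8 cells, against 43%, 36% and 34% in WT sgGPATCH8 cells. With sgRenilla it was used in 22%, 21% and 20% in S34F cells, against 40%, 36% and 39% in WT cells. The difference in the sgGPATCH8 libraries was −18.7 points (log2 ratio −1.34 ± 0.24 SE, limma adjusted p 0.0887), so the groups did not overlap but the event was not called. The 54-nt exon 5 of BCOR, with its acceptor at 39930943, was included in 46%, 50% and 46% of transcripts in S34F sgGPATCH8 cells, against 63%, 62% and 66% in WT sgGPATCH8 cells (−16.3 points, limma adjusted p 0.141). With sgRenilla its inclusion was 48%, 44% and 48% in S34F cells, against 64%, 68% and 59% in WT cells.

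**Figure D1:**
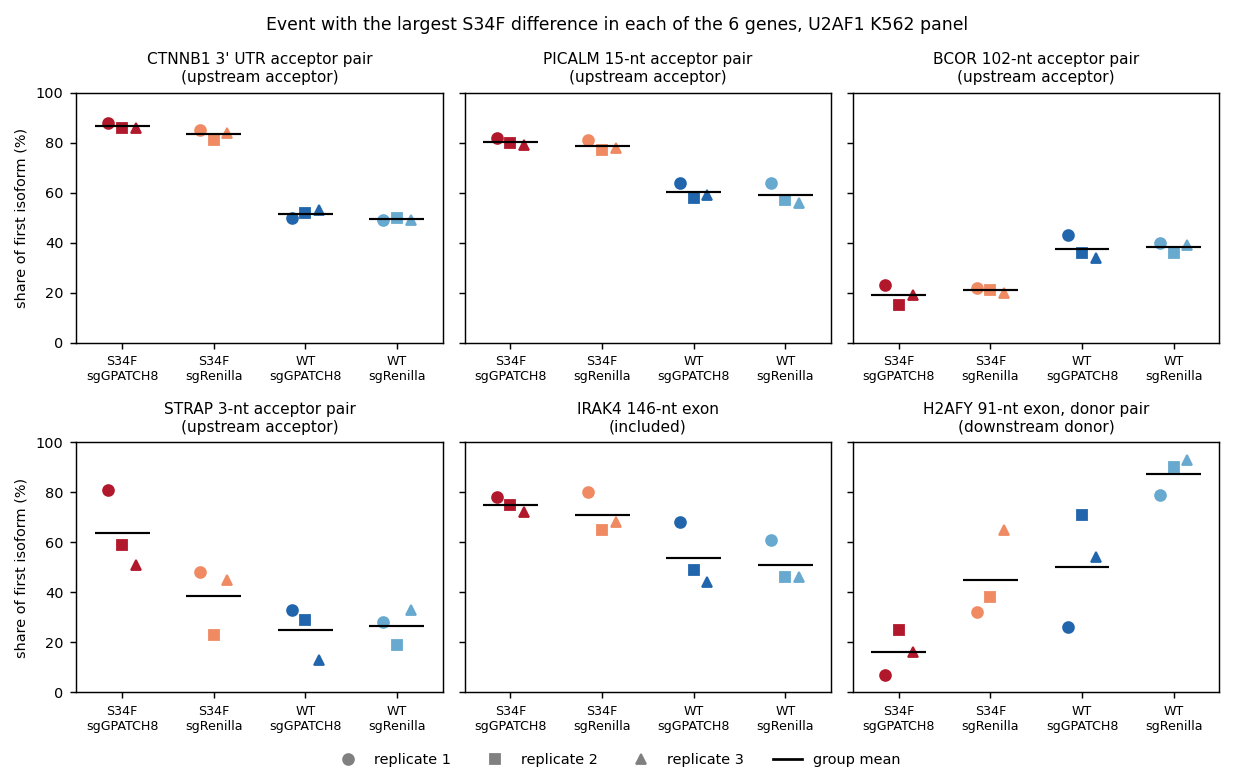
Share of the isoform listed first (percent, vertical axis) in the 12 libraries of the U2AF1 K562 panel, for 1 event of each gene. Points are libraries, shapes mark the replicate number and lines are group means (n = 3). The CTNNB1 shares are 81% to 88% with S34F and 49% to 53% with WT, while the STRAP and H2AFY shares spread widely within groups.

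IRAK4 encodes the kinase that starts signalling below Toll-like and interleukin-1 receptors. Its 146-nt coding exon, with the acceptor at 44165023 on chromosome 12, was included in 78%, 75% and 72% of transcripts in S34F sgGPATCH8 cells, against 68%, 49% and 44% in WT sgGPATCH8 cells. With sgRenilla the values were 80%, 65% and 68% in S34F cells, against 61%, 46% and 46% in WT cells. The replicate 1 library was the highest of each group. The difference in the sgGPATCH8 libraries was 21.3 points (limma adjusted p 0.262), and 28.5 points without the WT sgGPATCH8 replicate 1. The 170-nt exon upstream of it (acceptor at 44161906) was included in 43%, 60% and 60% in S34F sgGPATCH8 cells, against 70%, 78% and 94% in WT sgGPATCH8 cells (−26.3 points, limma adjusted p 0.298). The skipped form of that event joins the acceptor at 44165983, so it leaves out the 146-nt exon as well.

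STRAP encodes a WD40 protein known to restrain TGF-beta signalling and to work with the SMN complex. A pair of acceptors 3 nt apart, at 16036017 and 16036020 on chromosome 12, begins a 39-nt exon. The upstream site was used in 81%, 59% and 51% of transcripts in S34F sgGPATCH8 cells, against 33%, 29% and 13% in WT sgGPATCH8 cells. In the sgRenilla libraries it was used in 48%, 23% and 45% with S34F, against 28%, 19% and 33% with WT, and these groups overlapped. The difference was 38.7 points with sgGPATCH8 (log2 ratio 2.51 ± 0.62 SE, limma adjusted p 0.161) and 12 points with sgRenilla. The test of the difference between these differences gave an unadjusted p of 0.0727 and an adjusted p of 1 (limma). The 136-nt exon of STRAP (acceptor at 16036475) was included in 82%, 91% and 91% in S34F sgGPATCH8 cells, against 93%, 97% and 97% in WT sgGPATCH8 cells (−7.67 points, limma adjusted p 0.332).

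H2AFY encodes the histone variant macroH2A1. A 100-nt exon and a 91-nt exon, each exon 6 of its transcript, are used in place of each other: the 91-nt exon makes macroH2A1.1, which can bind ADP-ribose derivatives, and the 100-nt exon makes macroH2A1.2, which cannot. The 91-nt exon lies behind the TAG acceptor at 134686603 on chromosome 5. Its share is set against joining the donor before it to the acceptor at 134681747. That of the 100-nt exon is set against joining the same donor to the 91-nt exon. Neither is a share of all H2AFY transcripts. In sgRenilla cells the 91-nt exon was included in 1%, 4% and 4% with S34F, against 5%, 16% and 14% with WT. In sgGPATCH8 cells it was included in 1%, 1% and 0% with S34F, against 1%, 4% and 4% with WT. The 100-nt exon lies behind the CAG acceptor at 134688735. It was included in 85%, 84% and 83% in S34F sgGPATCH8 cells, against 81%, 78% and 80% in WT sgGPATCH8 cells (4.33 points, limma adjusted p 0.667). With sgRenilla it was included in 82%, 73% and 77% with S34F, against 77%, 69% and 62% with WT.

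The 91-nt exon of H2AFY ends in a pair of donors 4 nt apart, at 134686513 and 134686517, which give exons of 91 and 87 nt. The event is measured only on transcripts that include this rare exon, and the number of reads behind it is unknown. The downstream donor was used in 7%, 25% and 16% in S34F sgGPATCH8 cells, against 26%, 71% and 54% in WT sgGPATCH8 cells. With sgRenilla it was used in 32%, 38% and 65% in S34F cells, against 79%, 90% and 93% in WT cells. The replicate 1 library was the lowest of each group. The difference between S34F and WT in the sgGPATCH8 libraries was −34.3 points (limma adjusted p 0.258).

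Without the replicate 1 libraries limma called 0 of all 44733 tested events for S34F minus WT in the sgGPATCH8 libraries. The differences named above kept their directions and none was called. They were 21 points for the PICALM pair 15 nt apart (adjusted p 0.145) and −18 points for the BCOR pair (adjusted p 0.145). BCOR exon 5 differed by −16 points (limma adjusted p 0.244). The 146-nt exon of IRAK4 differed by 27 points (limma adjusted p 0.143) and its 170-nt exon by −26 points (limma adjusted p 0.25). The STRAP pair differed by 34 points (limma adjusted p 0.244) and the STRAP 136-nt exon by −6 points (limma adjusted p 0.156). The H2AFY donor pair differed by −42 points (limma adjusted p 0.188), its 91-nt exon by −3.5 points and its 100-nt exon by 4.5 points.

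Over the 26 tested member events, 10 had an unadjusted p under 0.05 for S34F in the sgGPATCH8 libraries, against 11.6% of all tested events, and their median absolute difference was 4.33 points, against 3 points over all tested events. The groups did not overlap in 13 of the 26 events, and in 15.1% of all tested events. In the sgRenilla libraries they did not overlap in 11 of 26, against 10.9% of all events. Both counts are descriptions, since either set of libraries may have entered the choice of the genes. Adding the guide to the comparison, 0 of 26 members and 0% of all events were called for the interaction of S34F and sgGPATCH8 with limma. At an unadjusted p under 0.05 the interaction had 0 member events and 1911 of all 43468.

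The guide against GPATCH8 itself was compared with sgRenilla in 6 settings. The U2AF1 panel holds the S34F libraries. Which libraries, of that panel or another, entered the choice of the genes is not recorded, so these calls are not given as independent of the choice. The 24-nt exon of PICALM, with its acceptor at 85689136, fell with sgGPATCH8 in both U2AF1 groups, both SRSF2 groups and 293T. In U2AF1 S34F cells it was included in 2%, 3% and 2% of transcripts with sgGPATCH8, against 13%, 13% and 15% with sgRenilla (−11.3 points, log2 ratio −2.32 ± 0.24 SE, limma adjusted p 0.00765). In U2AF1 WT cells it was included in 4%, 5% and 5% with sgGPATCH8, against 17%, 23% and 23% with sgRenilla (−16.3 points, log2 ratio −2.22 ± 0.24 SE, limma adjusted p 0.013). These were the only calls among 26 tested member events in comparisons that called 0.0345% of all events in S34F cells and 0.0322% in WT cells. Without the replicate 1 libraries the differences were −11.5 points in S34F cells (adjusted p 0.167) and −18 points in WT cells (adjusted p 0.212). That fit called 0 of 44733 tested events in either comparison. With 1 library left out, the S34F call was lost without replicate 1 or 3 of sgGPATCH8 or replicate 2 or 3 of sgRenilla (limma adjusted p 0.0518 to 0.0795). The WT call was lost without any of its sgGPATCH8 libraries or without replicate 2 or 3 of sgRenilla (limma adjusted p 0.0585 to 0.116). Over all events the fits that lost these calls made 4 to 9 calls in S34F cells, in place of 15. In WT cells they made 3 to 11, in place of 14.

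In SRSF2 P95H cells the 24-nt exon of PICALM was included in 5%, 4% and 4% with sgGPATCH8, against 17%, 15% and 17% with sgRenilla (limma adjusted p 0.000314). In SRSF2 WT cells it was included in 3%, 2% and 3% with sgGPATCH8, against 14%, 13% and 14% with sgRenilla (limma adjusted p 0.000415). In 293T cells its values were 7%, 8%, 8% and 8% with sgGPATCH8, against 25% in both sgRenilla libraries (−17.3 points, limma adjusted p 0.0441), and the call was lost without any 1 of the 10 libraries of 293T (adjusted p 0.124 to 0.268). Each of those fits made 0 calls over all events, in place of 33, and the difference stayed at −17.5 to −17 points. In the SF3B1 panel the 24-nt exon was included in 5% and 3.5% in K700E sgGPATCH8 cells, against 14% in the K700E sgRenilla library. In WT cells of that panel its inclusion was 4.5% and 2.5% with sgGPATCH8, against 13.5% with sgRenilla. The averaged difference of −9.88 points was not called there (limma adjusted p 0.13). Over the 4 panels the 20 sgGPATCH8 libraries lay between 2% and 8% and the 16 sgRenilla libraries between 13% and 25%. The 8 sgSUGP1 libraries lay between 11% and 30%.

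PICALM also has a pair of acceptors 21 nt apart, at 85701442 and 85701421, which give exons of 150 and 129 nt. In U2AF1 WT cells the upstream acceptor was used in 66%, 54% and 53% of transcripts with sgGPATCH8, against 88%, 82% and 86% with sgRenilla. This difference of −27.7 points had a limma adjusted p of 0.0839, and was called with the replicate number as a block (adjusted p 0.021). That block made 2 member calls in place of 1, and 25 in place of 14 over all tested events. The replicate 1 libraries deviate together, but replicates 2 and 3 of these groups correlated as much with each other's number (0.1251 and 0.1224) as with their own (0.1271 and 0.1219). Without the replicate 1 libraries the difference was −30.5 points (limma adjusted p 0.248). In U2AF1 S34F cells it was used in 65%, 57% and 59% with sgGPATCH8, against 86%, 83% and 81% with sgRenilla (−23 points, limma adjusted p 0.155, and −24 points without the replicate 1 libraries). In SRSF2 P95H cells it fell to 64%, 63% and 65% with sgGPATCH8, against 80%, 80% and 83% with sgRenilla (limma adjusted p 0.0015). In SRSF2 WT cells it fell to 57%, 58% and 59% with sgGPATCH8, against 82%, 83% and 82% with sgRenilla (limma adjusted p 0.000663). In the SF3B1 panel the difference was −18.1 points (limma adjusted p 0.106) and in 293T −17.3 points (limma adjusted p 0.0724). Over the 4 panels the 20 sgGPATCH8 libraries lay between 53% and 82% and the 16 sgRenilla libraries between 80% and 96%, overlapping only where 293T sgGPATCH8 libraries met K562 sgRenilla libraries.

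Both forms of this PICALM exon were included more with sgGPATCH8 in the SRSF2 panel. The 129-nt form was included in 34%, 36% and 35% in P95H sgGPATCH8 cells, against 19%, 18% and 19% in P95H sgRenilla cells (16.3 points, limma adjusted p 0.000351). In WT cells it was included in 38%, 37% and 38% with sgGPATCH8, against 20%, 21% and 21% with sgRenilla (17 points, limma adjusted p 0.00115). The 150-nt form rose by 12.3 points in P95H cells (limma adjusted p 0.00446) and by 10 points in WT cells (limma adjusted p 0.0468). That last call was lost when any of the 12 libraries was left out (adjusted p 0.0767 to 0.162). Those fits made 104 to 175 calls over all events, in place of 216. The events of both forms share junctions with the 21-nt pair, so they are not separate measurements.

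**Figure D2:**
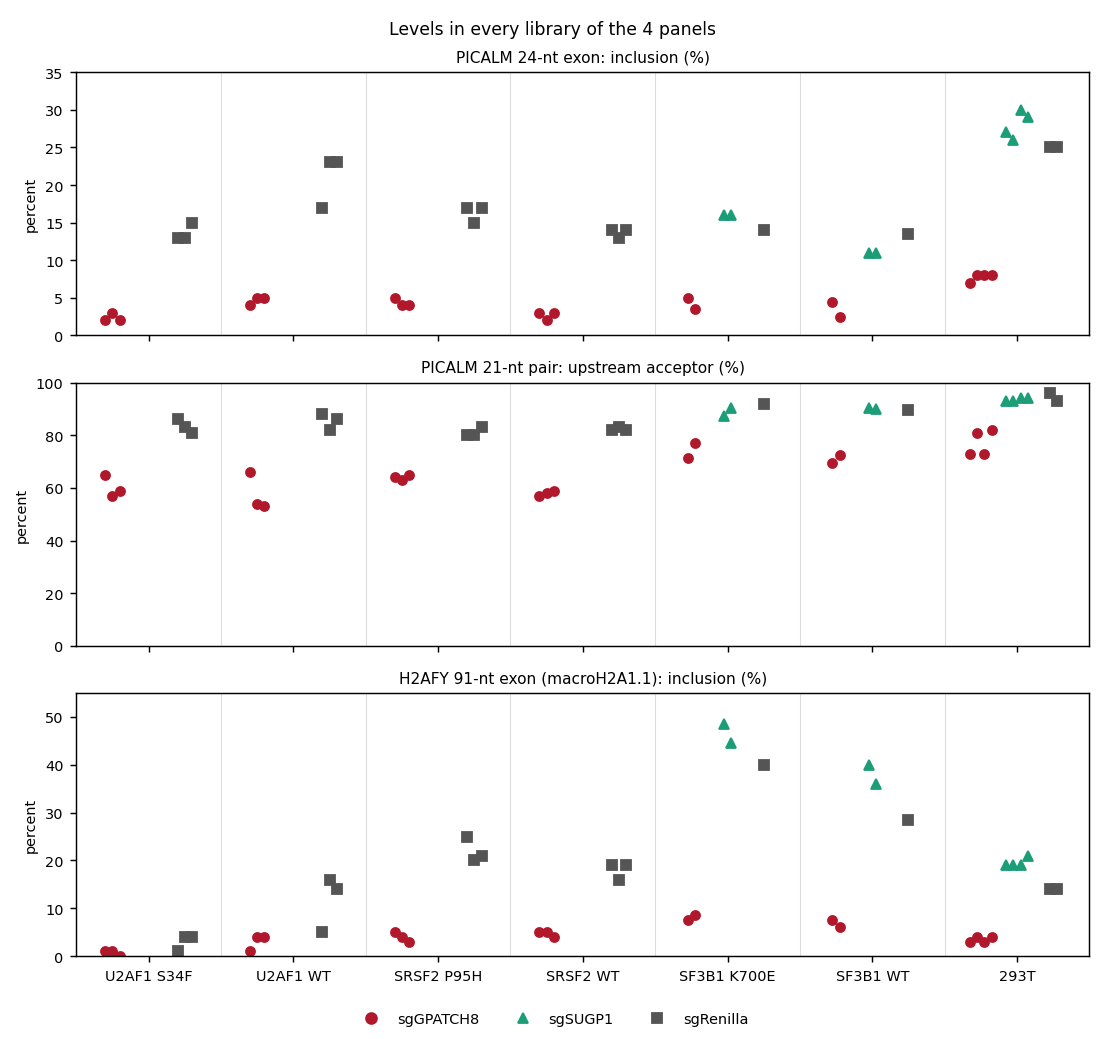
Levels (percent, vertical axis) of a PICALM exon, a PICALM acceptor and an H2AFY exon in all 44 libraries, with cells along the horizontal axis and colour and shape marking the guide. In the top plot the sgGPATCH8 libraries sit at 2% to 8% and the sgRenilla libraries at 13% to 25%.

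The 91-nt exon of H2AFY also fell with sgGPATCH8. In SRSF2 P95H cells it was included in 5%, 4% and 3% with sgGPATCH8, against 25%, 20% and 21% with sgRenilla (−18 points, log2 ratio −2.51 ± 0.20 SE, limma adjusted p 0.00017). In SRSF2 WT cells it was included in 5%, 5% and 4% with sgGPATCH8, against 19%, 16% and 19% with sgRenilla (−13.3 points, log2 ratio −1.96 ± 0.20 SE, limma adjusted p 0.00177). In 293T its values were 3%, 4%, 3% and 4% with sgGPATCH8, against 14% in both sgRenilla libraries (−10.5 points, log2 ratio −1.91 ± 0.20 SE, limma adjusted p 0.0377), a call lost without any 1 of the 10 libraries (adjusted p 0.116 to 0.264). Each of those fits made 0 calls over all events, in place of 33, and the difference stayed at −10.5 points. In the SF3B1 panel the 91-nt exon was included in 7.5% and 8.5% in K700E sgGPATCH8 cells, against 40% in the K700E sgRenilla library. In WT cells of that panel it was included in 7.5% and 6% with sgGPATCH8, against 28.5% with sgRenilla, and the averaged difference of −26.9 points just missed the threshold (limma adjusted p 0.0503). In the U2AF1 panel it was already at 1% to 4% in S34F sgRenilla cells. The difference there was −2.33 points in S34F cells (limma adjusted p 0.733) and −8.67 points in WT cells (limma adjusted p 0.816).

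The donor pair at the end of the same H2AFY exon also changed in the SRSF2 panel. The downstream donor was used in 60%, 53% and 58% in P95H sgGPATCH8 cells, against 93%, 91% and 92% in P95H sgRenilla cells (−35 points, limma adjusted p 0.000273). In SRSF2 WT cells it was used in 68%, 60% and 54% with sgGPATCH8, against 93%, 89% and 91% with sgRenilla (−30.3 points, limma adjusted p 0.00159). In 293T it was used in 55%, 53%, 41% and 60% with sgGPATCH8, against 86% and 90% with sgRenilla (−35.8 points, limma adjusted p 0.0708). In the U2AF1 panel the differences were −29 points in S34F cells (limma adjusted p 0.588) and −37 points in WT cells (limma adjusted p 0.643). The 100-nt exon was included in 73%, 74% and 77% in P95H sgGPATCH8 cells, against 64%, 60% and 59% in P95H sgRenilla cells (13.7 points, limma adjusted p 0.013, and 0.0524 without the P95H sgRenilla replicate 3). Its choice over the 91-nt exon rose to 99% in each P95H sgGPATCH8 library, against 92%, 93% and 92% in the P95H sgRenilla libraries (limma adjusted p 8.48e-05).

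IRAK4 has a 67-nt exon (acceptor at 44164841) that GENCODE 29 places in a transcript marked for nonsense-mediated decay. In SRSF2 WT cells it was included in 41%, 38% and 39% with sgGPATCH8, against 10%, 16% and 9% with sgRenilla (27.7 points, log2 ratio 2.24 ± 0.32 SE, limma adjusted p 0.0142). This call was lost without any of the 3 sgGPATCH8 libraries or without replicate 1 or 3 of sgRenilla (limma adjusted p 0.0591 to 0.0734). Those fits made 104 to 120 calls over all events, in place of 216. In SRSF2 P95H cells the 67-nt exon was included in 20%, 32% and 27% with sgGPATCH8, against 22%, 16% and 12% with sgRenilla, where the groups overlapped (9.67 points, limma adjusted p 0.172). In 293T its values were 31%, 24%, 10% and 35% with sgGPATCH8, against 8% and 4% with sgRenilla (19 points, limma adjusted p 0.376). The averaged difference in the SF3B1 panel was 12.4 points (limma adjusted p 0.0941). In the U2AF1 panel it was 14 points in S34F cells (limma adjusted p 0.501) and 15.7 points in WT cells (limma adjusted p 0.838). The 170-nt exon of IRAK4 fell to 82%, 79% and 76% in P95H sgGPATCH8 cells, against 94%, 99% and 97% in P95H sgRenilla cells (limma adjusted p 0.00861).

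Counted over the members, sgGPATCH8 changed 9 of 25 tested events in SRSF2 P95H cells (4 up, 5 down), against 4.84% of all events, and 7 of 25 in SRSF2 WT cells (3 up, 4 down), against 0.491% of all events. In 293T it changed 2 of 27, against 0.0673% of all events, both downward. In the SF3B1 panel limma called 0 of 28, against 0.00984% of all events, while 11 of the 28 had an unadjusted p under 0.05, against 9.29% of all events. Several of these events share junctions, and the genes hold fewer independent splicing choices than events. With sgGPATCH8 the CTNNB1 pair differed from sgRenilla by 3.33 points in U2AF1 S34F cells (limma adjusted p 0.833) and by 2.33 points in U2AF1 WT cells.

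**Figure D3:**
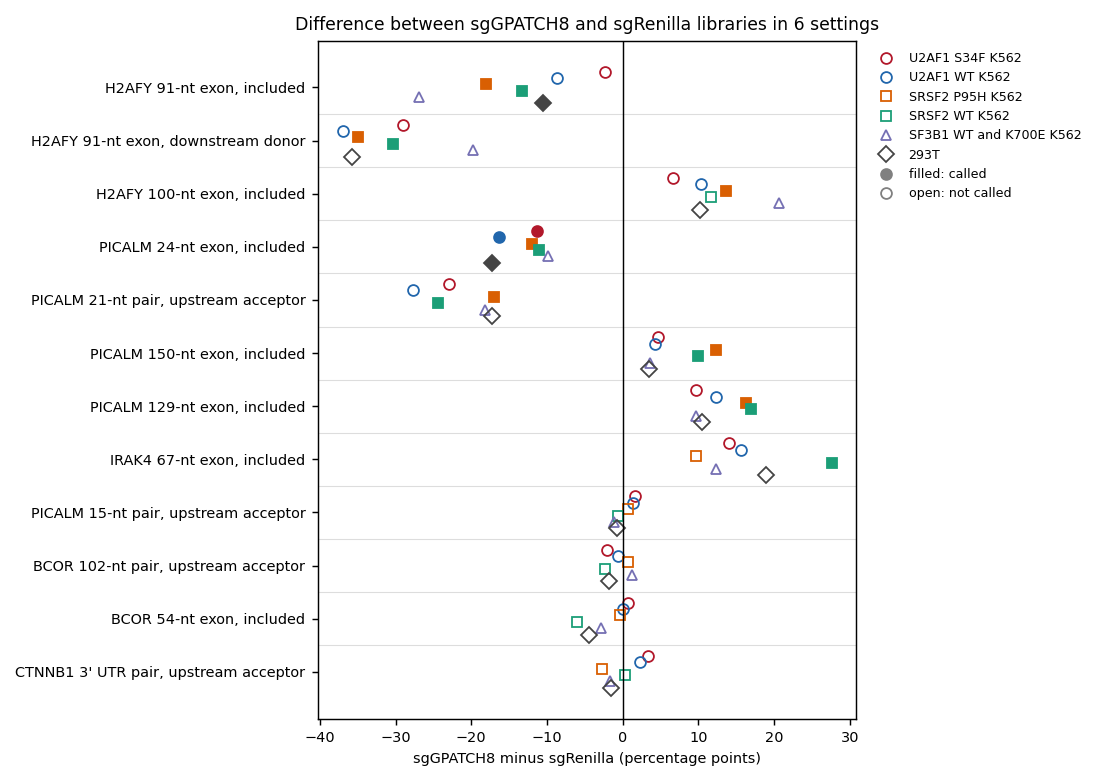
Difference between sgGPATCH8 and sgRenilla libraries (percentage points, horizontal axis) for 12 events of H2AFY, PICALM, IRAK4, BCOR and CTNNB1 in 6 settings, marked by colour and shape. Filled symbols passed the test. The 24-nt exon of PICALM differed by −17.3 to −9.88 points, while the CTNNB1 and BCOR pairs sat near 0.

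For the mutations in the other splicing factors, 1 member event was called per comparison. The share over all events is given with each call. A count of 1 does not set the members apart from other events. BCOR exon 5, the 54-nt exon, was included more with SF3B1 K700E: in 62.5% and 64% of transcripts in K700E sgGPATCH8 cells, against 49% and 48% in WT sgGPATCH8 cells. With sgSUGP1 it was included in 68% and 68.5% in K700E cells, against 50% and 53.5% in WT cells, and in the sgRenilla libraries in 66% with K700E, against 51.5% with WT. Averaged over the guides the difference was 15.3 points (log2 ratio 0.90 ± 0.12 SE, limma adjusted p 0.0244), the only call of 28 tested members in a comparison that called 3.35% of all events. The call was lost when any of the 8 sgGPATCH8 and sgSUGP1 libraries was left out (limma adjusted p 0.0624 to 0.0724). Those fits made 213 to 474 calls over all events, in place of 1701, and the difference stayed at 14.7 to 15.8 points. The level of BCOR exon 5 also differed between panels. Its group means reached 63.7% in U2AF1 WT cells and were 65% to 72% in 293T. In the SRSF2 panel they were 48% to 55.7%.

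With SRSF2 P95H, inclusion of the 146-nt exon of IRAK4 fell to 37%, 37% and 44% in P95H sgRenilla cells, against 58%, 61% and 52% in WT sgRenilla cells (−17.7 points, limma adjusted p 0.0467). In sgGPATCH8 cells it was 54%, 46% and 53% with P95H, against 58%, 61% and 55% with WT (−7 points, limma adjusted p 0.303). The 136-nt exon of STRAP fell to 92%, 91% and 93% in P95H sgGPATCH8 cells, against 97% in each WT sgGPATCH8 library (−5 points, limma adjusted p 0.0124), and by −4.5 points, under the threshold, without the P95H sgGPATCH8 replicate 2. These were the only calls of 25 tested members in each comparison, against 1.08% of all events in sgRenilla cells and 4.06% in sgGPATCH8 cells. The IRAK4 call was lost when any 1 of the 12 libraries was left out (adjusted p 0.0516 to 0.14). Those fits made 79 to 358 calls over all events, in place of 475.

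**Figure D4:**
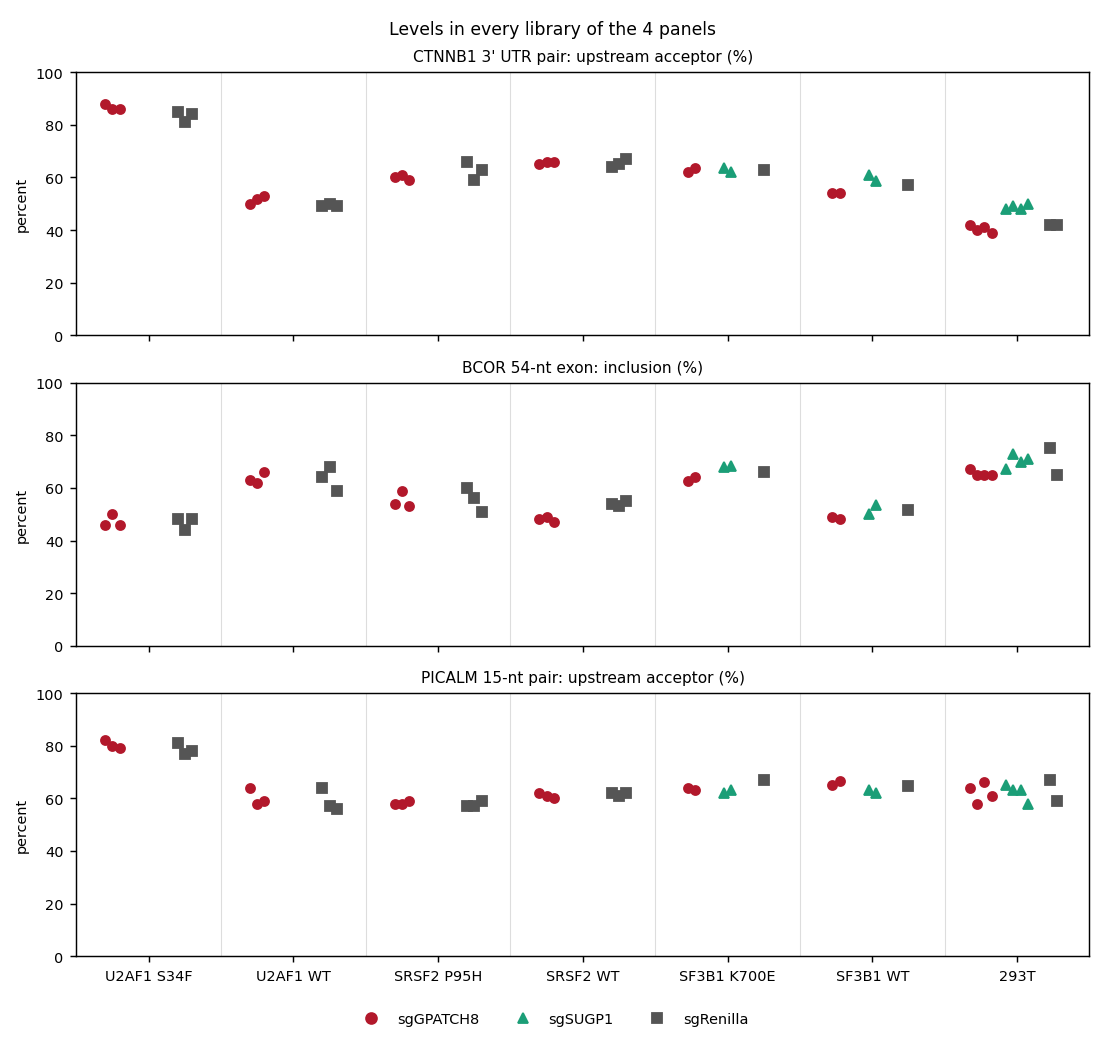
Levels (percent, vertical axis) of a CTNNB1 acceptor, a BCOR exon and a PICALM acceptor in all 44 libraries, with cells along the horizontal axis and colour and shape marking the guide. The CTNNB1 shares of the 6 S34F libraries (81% to 88%) lie above those of the other 38 (39% to 67%), and BCOR exon 5 is at 62.5% to 68.5% with K700E.

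With the guide against SUGP1 no member event was called: limma called 0 of 28 in the SF3B1 panel and 0 of 27 in 293T. The same comparisons called 0% and 0.0428% of all events, so these counts do not set the members apart from other events. At an unadjusted p under 0.05 there were 3 member events in the SF3B1 panel, against 12.5% of all events, and 1 in 293T, against 7.36%. On sequencing run 2 alone 175 of all 48639 events were called in the SF3B1 panel. Events of the 6 genes not named here differed by −13.5 to 2.88 points in that panel. The 91-nt exon of H2AFY was included in 48.5% and 44.5% in K700E sgSUGP1 cells, against 40% in the K700E sgRenilla library. In 293T it was included in 19%, 19%, 19% and 21% with sgSUGP1, against 14% in both sgRenilla libraries (5.5 points, limma adjusted p 0.622).

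In each panel, 9 to 11 of the tested member events are not named here, and none was called in any comparison. In the U2AF1 panel 10 such events differed between S34F and WT sgGPATCH8 cells by −3.33 to 13.3 points, with a lowest limma adjusted p of 0.657.

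Further lists of genes were described for S34F and WT in the sgGPATCH8 libraries of the same panel. Of 11 further genes published as S34F targets, 10 could be placed, with 86 tested events, of which 1 was called and 25 had an unadjusted p under 0.05, against 11.6% of all tested events. The call was in CASP8, the initiator caspase of death receptor signalling, whose upstream acceptor of a pair at 202131184 and 202131210 on chromosome 2, joined to the donor at 202123105, was used in 30%, 33% and 39% in S34F sgGPATCH8 cells, against 88%, 81% and 85% in WT sgGPATCH8 cells (−50.7 points, log2 ratio −3.36 ± 0.34 SE, limma adjusted p 0.0182). The CASP8 call was lost without the replicate 1 libraries (−47 points, limma adjusted p 0.139), in a fit that called 0 of 44733 events. It was also lost without any of the S34F sgGPATCH8 libraries, without replicate 2 or 3 of WT sgGPATCH8 or of WT sgRenilla, or without replicate 2 of S34F sgRenilla (limma adjusted p 0.0572 to 0.158). Those fits made 0 to 2 calls over all tested events, in place of 10. In sgRenilla cells the same CASP8 site was used in 52%, 45% and 33% with S34F, against 77%, 68% and 70% with WT. Of 8 genes of 3′ splice site recognition 54 events were tested, with 0 called and 3 at an unadjusted p under 0.05. Of 11 partners of beta-catenin 9 were placed, with 51 tested events, 0 called and 7 at an unadjusted p under 0.05, where 11.6% of all tested events were. The median absolute difference was 4 points in the list of S34F targets, 3.83 in that of splice site recognition and 4 among the partners of beta-catenin, against 3 over all tested events.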

How the data were processed

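Per the labels' protocols, poly(A) RNA was made into strand-specific dUTP libraries and read as paired ends. The submitters' processing notes name RSEM 1.2.4, Bowtie, TopHat2 2.0.8b and build hg19. The authors deposited, per panel, the fraction (0 to 1, 2 decimals) of the isoform listed first in each event, with no read counts, so depth and its error are unknown. The quantifying tool for the fractions is not given in the sources used here. Fractions were turned to log2((f + 0.01)/(1 − f + 0.01)), a log2 ratio computed here from the deposited values, and fitted with limma 3.58.1 in R 4.3.3, with limma-trend and all groups of a panel in 1 fit. An event needed a value in every library, some group mean of at least 5% and some of at most 95%. In the SF3B1 panel the repeat sequencing runs of a library were averaged. In 293T the guides against a gene were averaged. The fit was tested on simulated data of the SRSF2 and U2AF1 panels, with noise drawn independently for each library. The shared deviation of the replicate 1 libraries was not simulated, so that test does not show how it affects calls.

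The members and the gene lists were chosen with earlier results of these data known. Events named in the text are, in each gene, the one with the largest S34F minus WT difference in the sgRenilla libraries of the U2AF1 panel, and each member event called in any comparison. From each list, the called event with the largest difference is named.

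Same-numbered libraries were checked for pairing by the correlation of their deviations from the group means. Every pair passed 0.1 for S34F against WT with sgRenilla (0.3941, 0.1582 and 0.1624) and for sgGPATCH8 against sgRenilla in U2AF1 WT cells (0.3508, 0.1271 and 0.1219), from the data and not the labels. Replicates 2 and 3 also correlated across numbers (0.125 and 0.1228 with sgRenilla, 0.1251 and 0.1224 in WT cells), so beyond replicate 1 the pairing is weak with sgRenilla and not visible in WT cells. Alternatives were another offset, no limits on group means, 1 missing value, the replicate number as a block, single runs, and each library left out. Leaving out replicate 1 of the U2AF1 panel, and single libraries for CASP8, was added after seeing the data.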

Additional observations from a re-analysis of the deposited data

Results flagged for a closer look

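In 4 of 34 groups of 4 libraries, all in 293T, 1 library stood apart from 3 with identical rounded values. Chance gives such a gap in about 1 in 20 groups of continuous values, but with 3 tied values any step counts as a gap, so that rate does not hold here. The 91-nt exon of H2AFY was included in 21% in 1 sgSUGP1 library and in 19% in the other 3. The 24-nt exon of PICALM was included in 7% in 1 sgGPATCH8 library and in 8% in the other 3. The upstream acceptor of the 102-nt pair of BCOR was used in 29% in 1 sgGPATCH8 library and in 32% in the other 3. The 54-nt exon of BCOR was included in 67% in 1 sgGPATCH8 library and in 65% in the other 3. The values were deposited in steps of 1 point. In 68 pairs of effects under the same contrast, 0 had all libraries moving in opposite ways.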

How the results depend on the processing

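Of 219 counts of called member events under alternatives, for 14 comparisons, 148 stayed within 1.5 times the count reported and 71 moved; of 466 values of single events, 377 kept direction and call, 85 lost the call, 4 gained it and 0 reversed. Without limits on group means the member calls were 5 for sgGPATCH8 in the SF3B1 panel, 4 for sgGPATCH8 in 293T, and 2 each for S34F with sgGPATCH8 and with sgRenilla. Over all events the calls of these comparisons rose from 5 to 101, from 33 to 108, from 10 to 104 and from 1 to 49. With 1 missing value allowed member calls were 1 for sgGPATCH8 in 293T and 0 for P95H with sgRenilla. Calls over all events went there from 33 to 24 and from 475 to 418. With either sequencing run alone K700E had 0 member calls, and 117 and 278 calls over all events in place of 1701. With the replicate block K700E, P95H with sgRenilla and sgGPATCH8 in 293T had 0, sgGPATCH8 had 2 in U2AF1 S34F and 2 in U2AF1 WT cells, and S34F with sgGPATCH8 had 5 (CTNNB1 0.0162, PICALM 15-nt pair 0.0313, BCOR pair 0.0333, STRAP 136-nt exon 0.0389 and IRAK4 146-nt exon 0.0493, as limma adjusted p). Over all events the block left 706 calls for K700E, 87 for P95H with sgRenilla and 0 for sgGPATCH8 in 293T. For sgGPATCH8 it took calls from 15 to 32 in U2AF1 S34F cells and from 14 to 25 in U2AF1 WT cells. For S34F with sgGPATCH8 it took them from 10 to 378 of 43468 events, so the rise is not particular to the members. Same-numbered libraries correlated by 0.2343, 0.0673 and 0.0825 there, so the numbers do not pair those libraries by the rule used. Without replicate 1 of the U2AF1 panel, both S34F and both sgGPATCH8 comparisons had 0 member calls and 0 calls over all 44733 tested events. The cause was not tested, and fewer libraries enter that fit. With 1 library left out, calls ranged from 5 to 7 for sgGPATCH8 in SRSF2 WT cells, from 8 to 10 in SRSF2 P95H cells, from 0 to 1 for both P95H, both S34F and both U2AF1 sgGPATCH8 comparisons, and were 0 to 0 for K700E, the interaction, sgSUGP1, and sgGPATCH8 in the SF3B1 panel and 293T. Over all events, leaving out 1 library took calls from 33 to 0 for sgGPATCH8 in 293T. For K700E it took them from 1701 to between 213 and 474. Depth is unknown, so counting error could not be set beside the spread between libraries.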
